A study of Homo sapiens with 18 samples.

Results

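The genes described here are 40 genes of DNA replication and deoxynucleotide supply, among 20044 named genes on the arrays. They were chosen by name, from origin licensing through the replication fork to the enzymes that make deoxynucleotides, and the rule uses no measured value. Earlier results of these data were known when the names were chosen. Every probe whose gene symbol, updated by the Entrez ID of the platform annotation, matched one of them was taken, which gave 59 of 47323 probes. RNA came from HT29 and Colo-205, established colorectal cancer cell lines, grown as colonies in Matrigel, a basement membrane gel. Treated cultures received PLX4720, a small-molecule inhibitor of the mutant form of the kinase BRAF, at 3 µM. Their controls received the solvent DMSO. Treatment began on day 5 of culture, and the labels name days 1, 3 and 8 for HT29 and days 1, 3 and 10 for Colo-205, which were read here as days of treatment. HT29 had 2 biological replicates in each of 6 groups (PLX4720 or DMSO at each day), so 12 arrays, and Colo-205 had 1 array in each of its 6 groups. The labels name no other agent and no engineered allele for any group, and each culture holds 1 line.

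Before S phase, ORC, CDC6 and CDT1 load the ring-shaped MCM helicase onto origins, a step called licensing. CDC45 and the GINS complex then join the ring and turn it into an active helicase, primase and the polymerases copy both strands, PCNA is clamped on by the RFC loader, and FEN1 and LIG1 finish the lagging strand. Deoxynucleotides for this come from ribonucleotide reductase (RRM1 and RRM2), thymidylate synthase (TYMS), thymidine kinase (TK1) and DUT, which clears dUTP. Many of these genes are transcribed by E2F factors once the cyclin D kinases, which lie downstream of BRAF and ERK signalling, have inactivated the retinoblastoma protein.

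Values are log2 intensities, background-corrected and quantile-normalized over all 18 arrays, and a gene is represented by its brightest probe. A probe counted as detected where its detection p-value was under 0.01, and between 38.3% and 41.4% of probes were detected per array. Replicate HT29 arrays correlated at 0.986 to 0.991. All 6 epithelial markers (EPCAM, KRT8, KRT18, KRT19, CDH1 and VIL1) were detected on all 18 arrays, while 0 of 7 mesenchymal and 0 of 3 endothelial markers were. Detected on no array were 2 of the mesenchymal (COL3A1 and PDGFRB) and 2 of the endothelial markers (VWF and CDH5). The others were detected on some arrays, such as LUM on 3 HT29 and 4 Colo-205 arrays and COL1A1 on 1 and 3. ACTA2 was detected on 12 of 12 HT29 arrays, CD68 on all 18, and CD3E and PTPRC on none. Of the 40 genes, 39 were detected on at least 2 HT29 arrays and entered the HT29 test of 12675 genes. The exception was GINS1, whose probe was detected on 0 of 12 HT29 arrays and 2 of 6 Colo-205 arrays. All 40 entered the Colo-205 test of 11575 genes. In the text a gene rose, fell or passed where limma's moderated test, with Benjamini-Hochberg adjustment over all genes of the fit, gave an adjusted p under 0.05. In bulk RNA, fewer cells in S phase and less of a transcript per cell cannot be told apart.

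**Figure D1:**
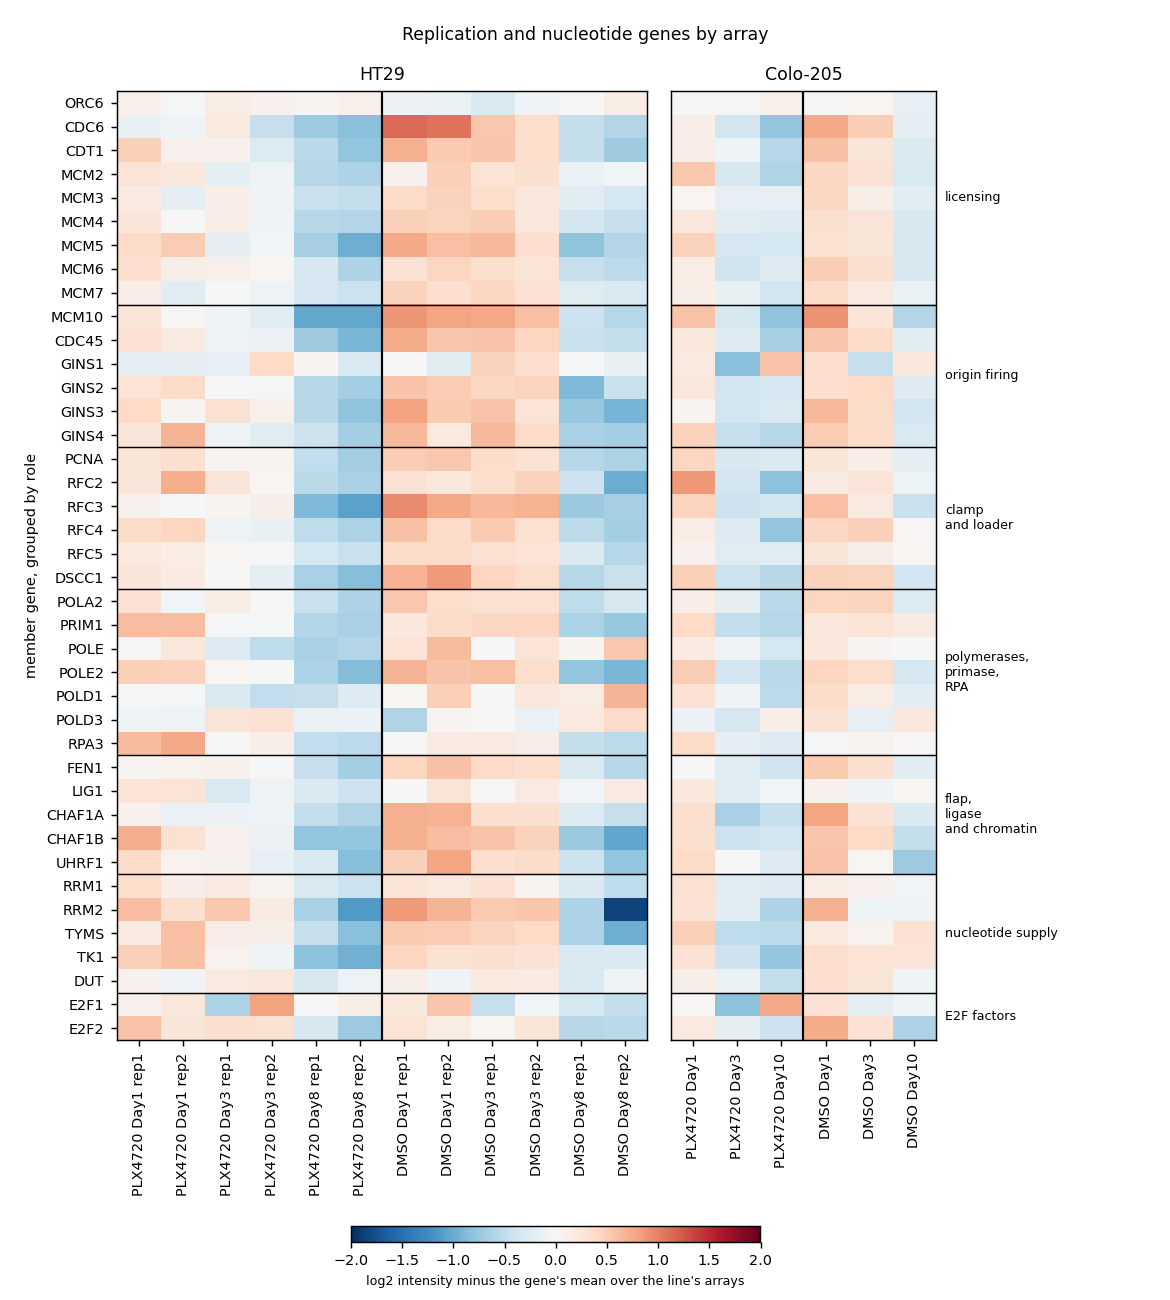
Log2 intensity of each of the 40 genes (rows, grouped by role) on each array (columns), as the difference from the gene's mean over the arrays of its line, with red above and blue below that mean. In HT29 the day 8 columns are blue for most genes in both PLX4720 and DMSO cultures, and in Colo-205 the PLX4720 column is already blue for most genes at day 3.

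The largest movement of these genes in HT29 was with time. In PLX4720 cultures 32 of the 39 tested genes fell between day 1 and day 8 and none rose, where 7.5% of all tested genes fell and 8.62% rose, and the median over the 39 was -0.88 on the log2 scale. In DMSO cultures 31 of 39 fell and 1 rose, where 20.4% of all genes fell and 22% rose, and the median was -0.96. With arrays scaled to their 75th percentile, the median of all genes under DMSO moved by -0.14. With that scaling 60.3% of all called genes were lower under PLX4720 and 61.2% under DMSO, against 46.5% and 48.2% after quantile normalization. For DMSO day 8 minus day 3 the share was 59.5% against 46.8%. The PLX4720 count was 18 without the first day 1 array and 14 without the second day 8 array of PLX4720. All 31 DMSO falls kept their call in each alternative processing and in each refit without 1 array.

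Among the licensing genes, 6 of 9 fell in PLX4720 cultures and 7 of 9 in DMSO cultures. CDC6, which brings the MCM ring to the origin, read 5.30 and 5.36 at day 1, 5.65 and 5.00 at day 3 and 4.72 and 4.61 at day 8 in PLX4720 cultures. Its probe was not well above background on either of those day 8 arrays. The fitted fall of 1.59-fold (limma adjusted p = 0.0428) takes those background readings as a level. That call was not kept in every alternative and refit. In DMSO cultures it read 6.58 and 6.53, then 5.99 and 5.80, then 4.98 and 4.87. There the days did not overlap, and day 8 was 3.10-fold lower than day 1 (log2 change -1.63 ± 0.19 SE, adjusted p = 0.000177). CDT1, the other loading factor, fell by 0.95 ± 0.19 in PLX4720 cultures and by 1.22 ± 0.19 in DMSO cultures on the log2 scale. At day 8 it read 8.90 and 8.65 under PLX4720 and 8.96 and 8.73 under DMSO, against day 1 values of 9.93 and 9.53 under PLX4720 and 10.16 and 9.97 under DMSO.

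Of the 6 subunits of the MCM ring, each read by its brightest probe, MCM5 changed most. Its values in PLX4720 cultures were 9.0 and 9.13 at day 1, 8.44 and 8.56 at day 3 and 7.95 and 7.65 at day 8. In DMSO cultures they were 9.37 and 9.22, then 9.27 and 8.94, then 7.82 and 8.03. Both courses therefore ended at overlapping levels, but the PLX4720 cultures were lower at day 3 in each array. MCM6 read 10.87 and 10.57 at day 8 and 11.52 and 11.30 at day 1 under PLX4720, and 10.72 and 10.67 at day 8 and 11.48 and 11.62 at day 1 under DMSO. MCM4 and MCM6 fell in both treatments, with day 8 minus day 1 changes of -0.70 and -0.69 under PLX4720 and of -0.87 and -0.85 under DMSO. MCM3 and MCM7 fell in DMSO cultures (-0.71 and -0.67) and did not pass under PLX4720 (-0.45 and -0.34, limma adjusted p = 0.0588 and 0.126). MCM2 had the opposite pattern of calls, with -0.82 (adjusted p = 0.00422) under PLX4720 and -0.37 (adjusted p = 0.0564) under DMSO. For none of these 3 did the test of the difference between treatments pass. In simulated data that test recovered 22% of changes of 1 on the log2 scale. The calls of MCM3 and MCM7 rest on the brightest probe of each gene. Under PLX4720 the day 8 minus day 1 change was -0.57 by the second tested probe of MCM3 and -1.33 by that of MCM7.

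All 5 origin-firing genes tested fell in both treatments. MCM10, which helps to start the assembled helicase, read 8.78 and 8.56 at day 1, 8.45 and 8.32 at day 3 and 7.51 and 7.51 at day 8 under PLX4720. Under DMSO it read 9.42 and 9.33, then 9.31 and 9.14, then 8.11 and 7.97. Every PLX4720 array lay below both DMSO arrays of its day. The day 8 minus day 1 change was -1.16 ± 0.13 under PLX4720 and -1.33 ± 0.13 under DMSO. CDC45, the helicase's partner, fell by 1.05 and 1.11 on the log2 scale in PLX4720 and DMSO cultures, and GINS2, GINS3 and GINS4, subunits of the GINS complex, fell by 0.90 to 1.00 under PLX4720 and by 1.10 to 1.51 under DMSO.

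The sliding clamp and its loaders fell in 6 of 6 genes in each treatment. PCNA, the clamp, read 11.37 and 11.45 at day 1, 11.18 on both arrays at day 3 and 10.64 and 10.42 at day 8 under PLX4720. The DMSO values were 11.63 and 11.66, 11.49 and 11.42, and 10.55 and 10.49. The levels at day 8 overlapped between treatments. Its day 8 minus day 1 change was -0.88 ± 0.11 under PLX4720 and -1.12 ± 0.11 under DMSO. RFC3, a subunit of the loader, had the largest change of the 6 under DMSO (-1.56 ± 0.12, adjusted p = 1.61e-05), and RFC5 the smallest in both (-0.57 under PLX4720 and -0.80 under DMSO).

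Of the polymerase, primase and RPA genes, 5 of 7 were lower under PLX4720, and 4 of 7 were lower and 1 higher under DMSO. POLE2, the second subunit of polymerase epsilon, fell by 1.22 under PLX4720 and 1.47 under DMSO, and PRIM1, the catalytic primase subunit, by 1.24 and 0.99. The catalytic subunits POLE and POLD1 did not pass under DMSO. The gene that rose under DMSO was POLD3, an accessory subunit of polymerase delta, with 7.41 and 7.58 at day 8 against 6.60 and 7.26 at day 1 (log2 change 0.57 ± 0.19, adjusted p = 0.0364). The day 1 DMSO replicates of POLD3 lay furthest apart among the 39 genes, and its call was the one not kept among the 32.

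At the lagging strand and behind the fork, FEN1, the flap nuclease, fell by 0.63 under PLX4720 and 0.93 under DMSO. The histone chaperone subunits CHAF1A and CHAF1B, which lay nucleosomes on new DNA, and UHRF1, which carries DNA methylation over to it, fell in both treatments. CHAF1B changed most, by -1.29 ± 0.16 and -1.55 ± 0.16 in PLX4720 and DMSO cultures. LIG1, the ligase, fell under PLX4720 (-0.62 ± 0.14, adjusted p = 0.0169) and did not pass under DMSO.

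In nucleotide supply, 4 of 5 genes fell in each treatment. RRM2, the inducible subunit of ribonucleotide reductase, read 8.73 and 8.43 at day 1, 8.64 and 8.26 at day 3 and 7.45 and 6.97 at day 8 under PLX4720. Under DMSO it read 8.96 and 8.78, then 8.62 and 8.66, then 7.49 and 6.25. The last array stood far below its replicate, yet both day 8 arrays lay below all earlier ones. The RRM2 change under DMSO was the largest of all 39 genes by their brightest probes, 4.0-fold (log2 -2.0 ± 0.35, adjusted p = 0.00153). Under PLX4720 it was 2.58-fold (-1.37 ± 0.35). RRM1, the larger partner of RRM2, changed by -0.61 and -0.62. TYMS, which makes thymidylate, fell by 1.03 under PLX4720 and by 1.32 under DMSO. Its day 8 values were 10.16 and 9.78 under PLX4720 and 10.00 and 9.64 under DMSO, and all 4 lay below the day 1 values, which began at 10.78. TK1 fell by 1.42 ± 0.12 under PLX4720, the largest change there by brightest probe, and by 0.66 ± 0.12 under DMSO.

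The E2F factors differed from each other. E2F2 fell in both treatments (-0.93 and -0.76). E2F1 read between 5.86 and 7.28 in PLX4720 cultures and between 6.01 and 7.03 in DMSO cultures, with replicates of PLX4720 day 3 at 5.86 and 7.28, and its DMSO change of -0.79 ± 0.37 did not pass (adjusted p = 0.12). By their brightest probe, the genes that did not pass under PLX4720 were thus MCM3, MCM7, ORC6, POLD1, POLD3, DUT and E2F1, with changes between -0.45 and 0.05. Under DMSO they were MCM2, ORC6, POLE, POLD1, LIG1, DUT and E2F1, between -0.79 and 0.19.

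Most of the DMSO fall lay after day 3. Under PLX4720, 3 genes (PRIM1, RPA3 and TK1) fell between day 1 and day 3, where 0.907% of all genes did, and 13 between day 3 and day 8, where 1.28% did. Under DMSO none of the 39 passed between day 1 and day 3 in limma, where 0.316% of all genes fell and 2% rose, with 3 at an unadjusted p under 0.05. Between day 3 and day 8 of DMSO 31 fell, where 16.1% of all genes did. Without between-array normalization, 36.4% of all genes called for PLX4720 day 8 minus day 3 were lower, against 51.3% after quantile normalization, and 35.5% against 46.8% for the same step of DMSO. The count of 3 under PLX4720 was 0 without any 1 of its 4 arrays. The count of 13 was 1 and 3 without the first and second day 3 array, and 2 and 0 without the first and second day 8 array.

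**Figure D2:**
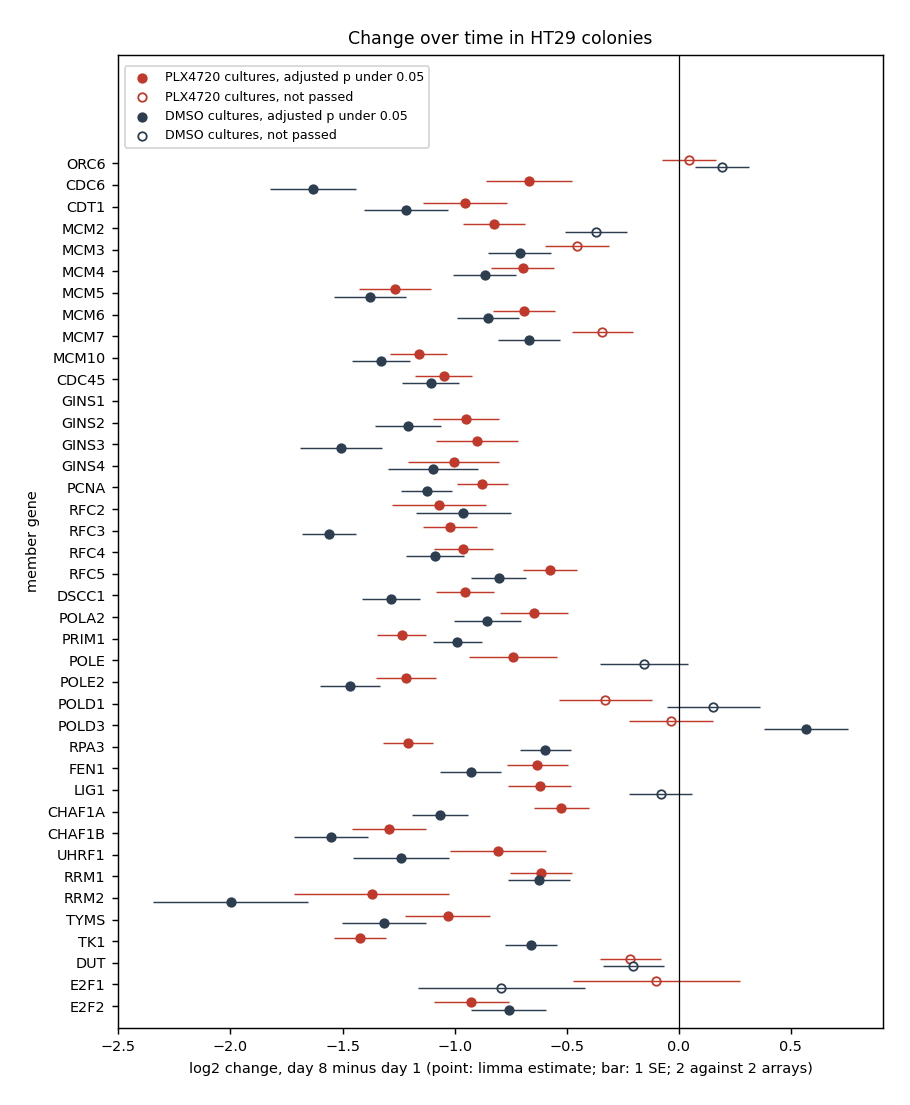
Log2 change from day 1 to day 8 in HT29 for each gene, with PLX4720 above DMSO in each row, points at the limma estimate, bars of 1 SE and filled points where the adjusted p was under 0.05. Nearly all points lie left of 0 in both treatments, from -2.0 for RRM2 to 0.57 for POLD3 under DMSO.

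The promoters of these genes, whether or not they fell, were read for sequence they share. RefSeq windows (GRCh38.p14) of the 250 bases before the transcription start existed for 34 of the 40 genes and 27305 genes in all. The E2F motif was searched on both strands as TTTGGCGC, TTTCGCGC, TTTCCCGC or TTTGCCGC, and its core as GGCGGGAA. CCAAT, the box bound by NF-Y, was searched on both strands too, and overlapping matches each counted. The E2F motif was in 15 of the 34 promoters (44.1%) and 3.4% of all genes' promoters. Among the 15 were DUT, E2F1, POLE and LIG1, which did not pass from day 1 to day 8 under DMSO. The core was in 10 (29.4%) and 3.31%, and CCAAT in 19 (55.9%) and 37.0%. The promoters shown are those of the 4 genes with the largest called change for which a window could be shown, and of MCM6, which had the most E2F matches and was added after the matches were counted. Capitals mark the motif matches, and all are written 5′ to 3′ on the strand of the gene.
RRM2: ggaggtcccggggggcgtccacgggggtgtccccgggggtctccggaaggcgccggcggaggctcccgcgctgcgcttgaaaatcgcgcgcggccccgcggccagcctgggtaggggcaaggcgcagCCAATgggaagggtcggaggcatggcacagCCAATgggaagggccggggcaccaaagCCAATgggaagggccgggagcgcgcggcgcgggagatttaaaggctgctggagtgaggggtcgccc
CDC6: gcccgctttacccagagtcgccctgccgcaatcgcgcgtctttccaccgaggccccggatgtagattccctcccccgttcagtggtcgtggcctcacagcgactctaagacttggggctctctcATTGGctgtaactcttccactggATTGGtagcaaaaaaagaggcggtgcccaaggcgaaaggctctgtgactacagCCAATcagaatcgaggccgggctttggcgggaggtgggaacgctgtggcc
RFC3: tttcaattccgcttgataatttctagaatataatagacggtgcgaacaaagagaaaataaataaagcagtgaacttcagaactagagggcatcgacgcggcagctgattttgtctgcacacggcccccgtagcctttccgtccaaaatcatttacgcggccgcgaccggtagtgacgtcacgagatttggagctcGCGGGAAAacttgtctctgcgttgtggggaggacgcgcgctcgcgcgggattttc
CHAF1B: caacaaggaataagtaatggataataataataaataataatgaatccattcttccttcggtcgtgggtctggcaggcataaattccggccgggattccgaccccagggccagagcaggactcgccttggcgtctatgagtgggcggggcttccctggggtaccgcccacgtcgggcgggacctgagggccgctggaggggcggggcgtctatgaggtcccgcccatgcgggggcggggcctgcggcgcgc
MCM6: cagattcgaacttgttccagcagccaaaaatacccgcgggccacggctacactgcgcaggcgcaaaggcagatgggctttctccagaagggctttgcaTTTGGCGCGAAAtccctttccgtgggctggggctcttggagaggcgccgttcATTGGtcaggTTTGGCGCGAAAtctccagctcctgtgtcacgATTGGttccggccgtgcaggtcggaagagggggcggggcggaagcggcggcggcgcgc
The RRM2 window (chr2:10122489-10122738, plus strand, the first of 2 listed) held 3 CCAAT boxes, the nearest 66 bases before the start. That of CDC6 (chr17:40287629-40287878, plus strand) also held 3, and neither had one of the E2F letter strings. RFC3 (chr13:33817899-33818148, plus strand) had 1 E2F match, 55 bases before the start. CHAF1B (chr21:36385142-36385391, plus strand) had none of the strings. In MCM6 (chr2:135876444-135876693, minus strand) the 4 E2F matches form 2 overlapping pairs on opposite strands, with CCAAT boxes after each. Only exact matches to the listed strings were counted. Sites spelled otherwise, or lying after the start, would be missed, so a window without a match may still hold a site. These letters describe the windows, and binding was not measured.

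PLX4720 against DMSO at the same day moved fewer of these genes than time did. At day 1 in HT29, 8 of 39 genes were lower and 1 was higher with PLX4720, where 10.8% of all genes were lower and 11.8% higher. At day 3, 10 were lower and none higher, where 7.53% of all genes were lower and 8.95% higher. At day 8, 5 were lower and none higher, where 8.62% were lower and 7.34% higher. The medians over the 39 genes were -0.23, -0.34 and -0.03 at the 3 days, against 0.01 or less over all genes. With 75th percentile scaling, 61.8%, 62.1% and 63.4% of all called genes were lower at day 1, at day 3 and over the mean of days, against 47.6%, 45.7% and 48.6% after quantile normalization. Without between-array normalization the day 3 share was 35.1%. The day 1 count of 9 was 5 without the second PLX4720 array. The day 3 count was 3 and 1 without the first and second PLX4720 array and 1 and 3 without the first and second DMSO array, and the day 8 count was 1 and 0 without the first and second PLX4720 array and 2 without the second DMSO array. Averaged over the 3 days, 15 genes were lower and none higher, where 16% of all genes were lower and 16.9% higher, and 10 of the 15 kept their call throughout. The 15 were CDC6, MCM2, MCM3, MCM4, MCM5 and MCM7 of licensing, MCM10 and CDC45 of firing, RFC3 and DSCC1 of the clamp loaders, POLE and POLD1, FEN1, CHAF1A, and TK1. Their mean differences ran from -0.69 ± 0.07 (MCM10, adjusted p = 0.000146) to -0.25 (TK1).

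At day 1 the 8 genes lower with PLX4720 belonged to licensing (CDC6, MCM7), firing (MCM10, CDC45), the clamp loaders (RFC3, DSCC1), FEN1 and CHAF1A. CDC6 had the largest difference, at 5.30 and 5.36 in PLX4720 cultures against 6.58 and 6.53 in DMSO cultures, 2.33-fold lower (log2 -1.22 ± 0.19, adjusted p = 0.00226). The groups were far apart relative to their replicates. RFC3 read 7.37 and 7.29 against 8.23 and 8.05 (-0.81 ± 0.12, adjusted p = 0.00171). CHAF1A read 6.47 and 6.24 with PLX4720 and 7.09 and 7.07 with DMSO (-0.73 ± 0.12, adjusted p = 0.00353), and MCM10 differed by -0.70 ± 0.13 (adjusted p = 0.00474). None of the 5 nucleotide supply genes passed at this day.

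RPA3, the smallest subunit of the complex that coats single-stranded DNA, went the other way at day 1. It read 12.31 and 12.43 with PLX4720 against 11.69 and 11.83 with DMSO (0.61 ± 0.11, adjusted p = 0.00503). At day 3 it read 11.67 and 11.79 against 11.84 and 11.80, and at day 8 it read 11.18 and 11.15 against 11.19 and 11.14. Neither later difference passed, and at day 8 the groups overlapped. Of the 9 calls of day 1, those of CDC6, CHAF1A, MCM10, RFC3 and RPA3 were kept in each alternative and each refit without 1 array.

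At day 3 the lower genes were MCM5, MCM10, CDC45, GINS4, RFC3, RFC4, DSCC1, PRIM1, POLE2 and CHAF1A. MCM10 was lowest (-0.84 ± 0.13, adjusted p = 0.00312) and the only one kept throughout. MCM5 was 1.53-fold lower (-0.61 ± 0.16, adjusted p = 0.0317). CDC45 read 10.60 and 10.58 with PLX4720 against 11.27 and 11.14 with DMSO, and GINS4 read 6.40 and 6.26 against 7.15 and 6.88. In both genes the groups were apart by more than the replicates. PRIM1 read 9.21 and 9.19 against 9.64 and 9.65 (-0.45 ± 0.11, adjusted p = 0.0244), while at day 1 it had read 9.85 on both PLX4720 arrays against 9.44 and 9.59 (0.33 ± 0.11, adjusted p = 0.06). CDC6 was at -0.57 ± 0.19 and did not pass (adjusted p = 0.0752), with PLX4720 replicates at 5.65 and 5.00.

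At day 8 the lower genes were MCM2, MCM10, POLE, POLD1 and TK1. POLE, the leading-strand polymerase, read 6.78 and 6.85 with PLX4720 against 7.49 and 7.96 with DMSO (1.88-fold lower, -0.91 ± 0.20, adjusted p = 0.0131). POLD1, its lagging-strand counterpart, read 7.18 and 7.39 against 7.78 and 8.32 (-0.77 ± 0.21, adjusted p = 0.0355). Both had estimates below 0 at the earlier days without passing, at -0.33 and -0.52 for POLE and -0.29 and -0.50 for POLD1. MCM2 read 8.96 and 8.90 against 9.39 and 9.46 (-0.50 ± 0.14, adjusted p = 0.0394). TK1 read 9.60 and 9.47 against 10.13 and 10.14 (-0.60 ± 0.12, adjusted p = 0.00823). None of these 5 calls was kept in each refit without 1 array.

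The test of the PLX4720 effect at day 8 against that at day 1 passed for 3 of 39 genes, 1 higher and 2 lower, where 7.05% of all genes were higher and 8.91% lower. CDC6 was the higher one (fitted difference 0.96 ± 0.27, adjusted p = 0.0415). Its probe was not well above background on either PLX4720 array of day 8. The readings there were 1.2-fold lower than with DMSO, a difference that did not pass, against 2.33-fold lower at day 1. The fitted difference takes the background reading as a level and is no measured size, and whether the effect changed cannot be told from it. The mean of days uses the same reading. For RPA3 (-0.61 ± 0.16, adjusted p = 0.0312) the groups overlapped at day 8 and PLX4720 was higher at day 1. For TK1 (-0.76 ± 0.16, adjusted p = 0.0146) the effect was -0.60 at day 8 and 0.16 at day 1. The count was 1 without the first DMSO or second PLX4720 array of day 1, 1 without the second DMSO or first PLX4720 array of day 8 and 0 without the second PLX4720 array of day 8.

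**Figure D3:**
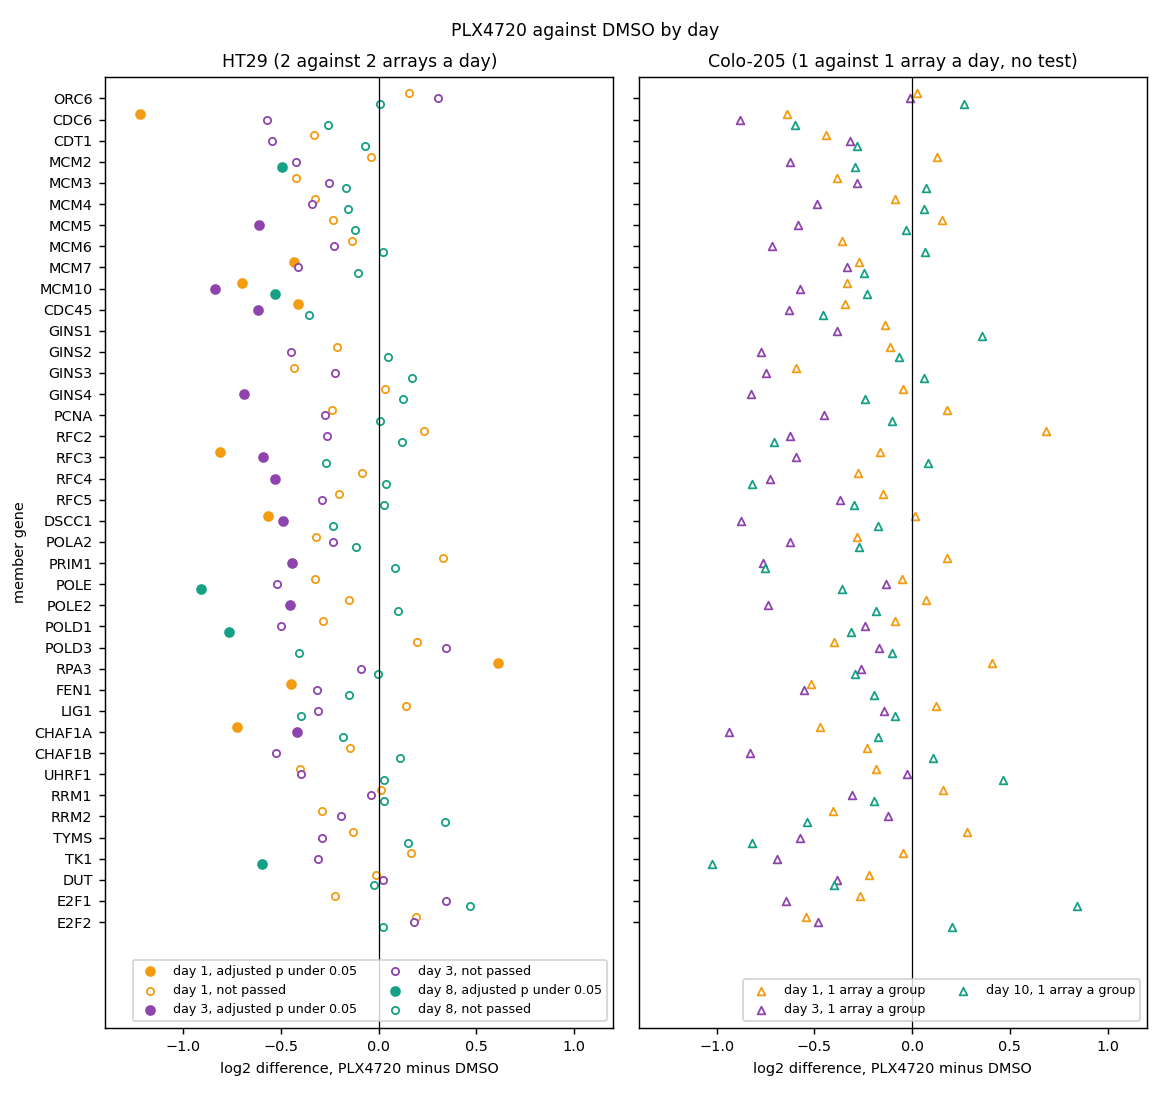
Log2 difference of PLX4720 minus DMSO for each gene by day, in HT29 on the left (filled where the adjusted p was under 0.05) and in Colo-205 on the right (1 array against 1, no test). The HT29 points range from -1.22 (CDC6, day 1) to 0.61 (RPA3, day 1), and all 40 Colo-205 points of day 3 lie below 0, that of GINS1 being a difference of background readings.

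In Colo-205 each difference of a day is 1 array minus another, with no replicate check, so values are described by their size. At day 3 the PLX4720 reading was lower for all 40 genes, where 49.4% of all genes were lower by any amount. Of the 40, 19 were lower by more than 1.5-fold, where 10.8% of all genes were. The probe was detected on both arrays for 38 of the 40, and all 38 were lower, 18 by more than 1.5-fold. GINS1 was detected on neither array and E2F1 on 1, so the GINS1 readings are both background. The median was -0.57. At day 1, 28 of 40 were lower (49.3% of all genes) and 2 by more than 1.5-fold (9.5%). At day 10, 29 were lower (46.0%) and 6 by more than 1.5-fold (14.6%). With the authors' processed values or without background correction the day 3 count was 11, and all 40 genes were lower in both.

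CDC6 was lower with PLX4720 at each day in Colo-205, at 6.13, 5.62 and 5.21 against 6.77, 6.50 and 5.81 at days 1, 3 and 10. TK1 was close at day 1 (10.67 against 10.72) and apart later, at 9.97 against 10.66 at day 3 and 9.61 against 10.64 at day 10. Its DMSO level stayed between 10.64 and 10.72. RPA3 was above DMSO only at day 1, at 12.11 against 11.70, and below it at days 3 and 10 (11.52 against 11.78 and 11.45 against 11.75). MCM2 and MCM5 were slightly higher with PLX4720 at day 1, at 10.77 against 10.65 and 10.41 against 10.25. At day 3 they were lower, at 9.90 against 10.52 and 9.61 against 10.19. PCNA followed the same order, with 11.99 against 11.81 at day 1 and 11.24 against 11.69 at day 3. RRM2 was lower with PLX4720 at each day, at 9.64, 9.12 and 8.73 against 10.04, 9.25 and 9.27. CHAF1A had the largest difference at day 3 (-0.94), and RFC4 and TYMS were both at -0.82 at day 10. E2F1 was the highest at day 10 (0.84), with a probe read of 6.79 against 5.95.

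With the 3 days taken as replicates of the drug effect, no Colo-205 gene of the 40 passed in limma, where 0.752% of all genes were lower and 0.613% higher. The estimates were below 0 for 38 of 40, where those of 47.2% of all genes were, with a median of -0.28. Of the 40, 5 had an unadjusted p under 0.05. Those were CDC6 (-0.71 ± 0.17, adjusted p = 0.115), RFC4 (-0.61 ± 0.19, adjusted p = 0.189), TK1 (-0.59 ± 0.23, adjusted p = 0.276), CHAF1A (-0.53 ± 0.21, adjusted p = 0.271) and CDC45 (-0.48 ± 0.17, adjusted p = 0.23). The spread here is that between days, which includes any change of the effect with time.

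In Colo-205 most of these genes were also lower at the last day than at the first. From day 1 to day 10, 36 of 40 were lower with PLX4720 and 38 of 40 with DMSO, where 49.2% and 51.0% of all genes were. By more than 1.5-fold, 25 and 22 were lower, where 12.1% and 17.2% of all genes were. From day 1 to day 3, 18 genes were lower by more than 1.5-fold under PLX4720 (8.78% of all genes, with 8.33% higher by as much). Under DMSO 3 were lower by that much (5.27%, with 6.08% of all genes higher by as much). From day 3 to day 10 these counts were 0 with PLX4720 (7.71%, with 8.09% higher) and 14 with DMSO (13%). By any amount, 27 of 40 were lower over that step with PLX4720 (median -0.09) and 34 with DMSO (median -0.49). Of all genes 50.2% and 51.2% were lower.

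**Figure D4:**
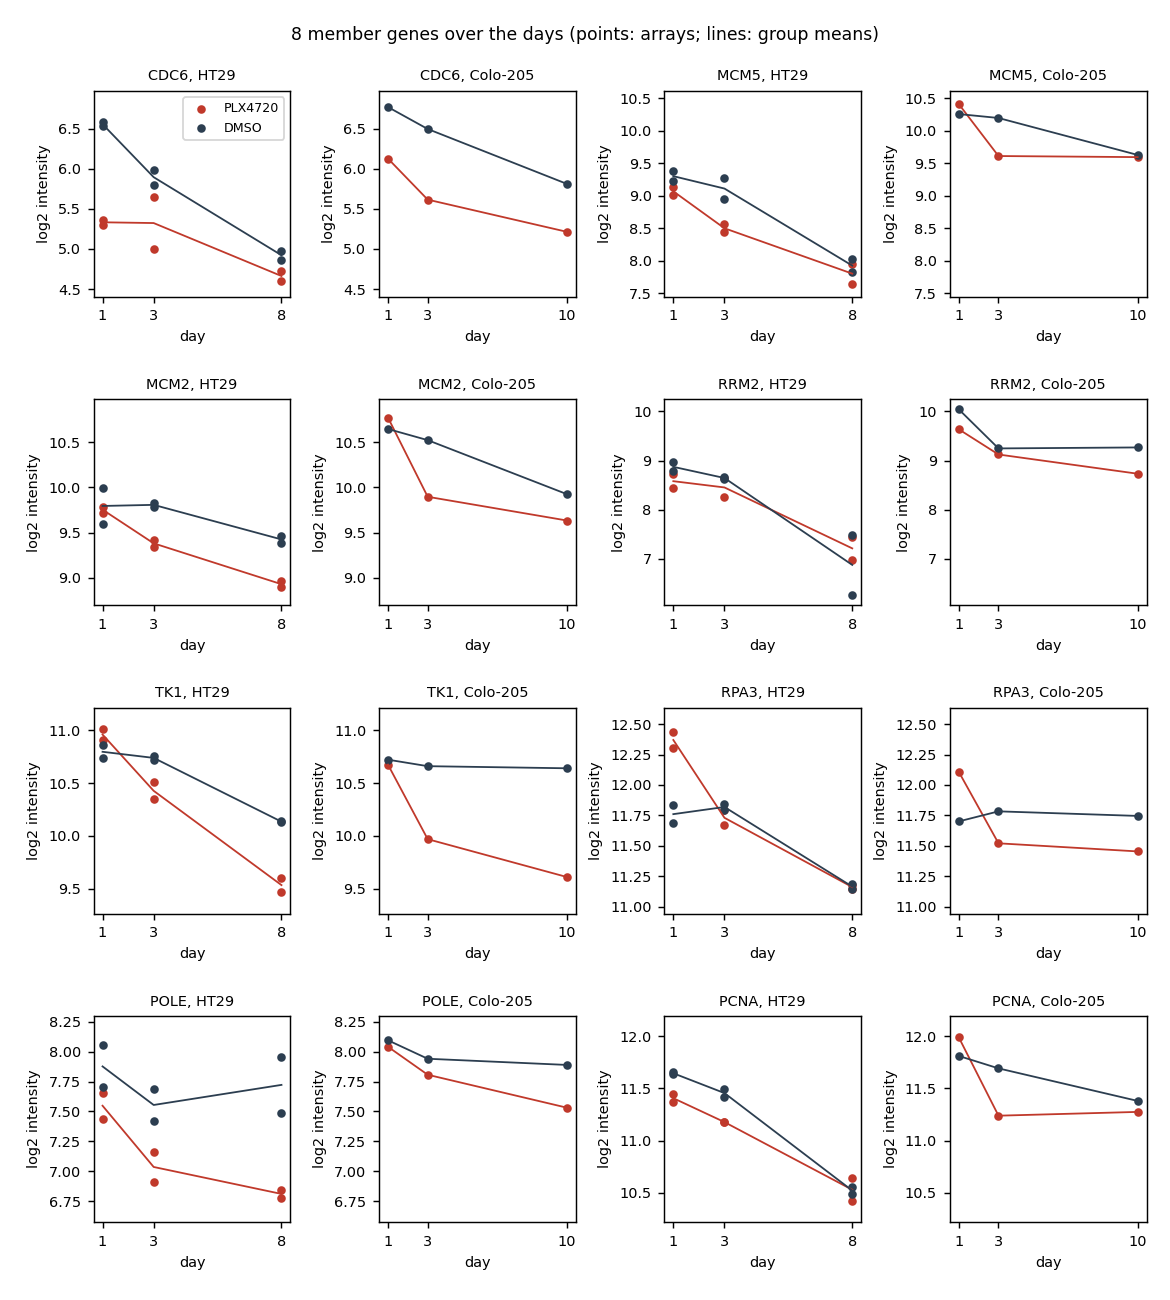
Log2 intensity of 8 of the genes by day in both lines (points are arrays, lines join group means, with 1 array a point in Colo-205), PLX4720 in red and DMSO in dark blue. CDC6 is lower with PLX4720 in both lines at day 1, and TK1 separates from DMSO at the later days, to 9.61 against 10.64 in Colo-205 at day 10.

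The treatment effect averaged over days did not pass a test of difference between the lines for any of the 40 genes, where 1.55% of all 13659 genes were higher and 2.43% lower in Colo-205. At an unadjusted p under 0.05 there was 1, DUT (-0.33 ± 0.15, adjusted p = 0.272). The averages hold unlike last days, day 8 in HT29 and day 10 in Colo-205. With days 1 and 3 only, the median difference over 39 genes was -0.02, against -0.11 over all days for the 40. In simulated data the test over all days recovered 63% of changes of 1 on the log2 scale. Each line was hybridised on a BeadChip of its own, so levels of the lines and of the chips cannot be told apart.

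Other genes of the same pathways were read from lists of names, and their counts stand against the shares of all genes. From day 1 to day 8, 7.5% of all genes fell and 8.62% rose under PLX4720, and 20.4% fell and 22% rose under DMSO. Among 35 other replication genes, 17 fell under PLX4720, and 24 fell and 1 rose under DMSO. HELLS, a chromatin remodeller of replicating cells, changed by -1.35 and -1.47, and ORC1, which marks origins, by -1.27 and -1.52. Among 24 other nucleotide synthesis genes, 4 fell under PLX4720, and 16 fell and 2 rose under DMSO. Of 14 other E2F and pocket protein genes, 3 fell under PLX4720, and 10 fell and 1 rose under DMSO, where RB1, the retinoblastoma gene, was at -1.28. Of 20 mitosis genes, 18 fell under PLX4720 and 17 under DMSO, among them AURKB under PLX4720 (-1.22) and PLK1 under DMSO (-1.70). Of 14 G1 cyclin and CDK inhibitor genes, 5 fell and 4 rose under PLX4720, and 6 fell and 3 rose under DMSO. The CDK inhibitors did not move one way. CDKN1A, which encodes p21, rose in both (1.43 and 1.52), as did CDKN1C (1.21 and 1.62), while CDKN2D fell under PLX4720 (-0.92) and CDKN2B under DMSO (-0.996).

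At day 1 of PLX4720 against DMSO, 10.8% of all genes were lower and 11.8% higher. Of the 24 other nucleotide genes, 14 were lower and 1 higher. The lower ones include CTPS1, which makes CTP (-1.27 ± 0.11), CAD, which starts pyrimidine synthesis (-1.23 ± 0.24), and PPAT, which starts purine synthesis (-0.85 ± 0.13). Of the other replication genes 5 of 35 were lower and none higher, a share near that of all genes, with MCMBP, an MCM binding protein, at -1.14. Of 20 mitosis genes 1 was lower, which is below the share of all genes. Of the 14 E2F and pocket protein genes, 4 were lower and 1 higher. Among 14 G1 cyclin and CDK inhibitor genes, 4 were lower and 1 higher. CCND1, cyclin D1, was lower by 1.84 ± 0.13 on the log2 scale (adjusted p = 3.89e-05) and CDKN1B, which encodes p27, higher (0.61 ± 0.12). At day 3, where 7.53% of all genes were lower and 8.95% higher, 15 of the 24 nucleotide genes were lower and 1 higher, and 7 of the 20 mitosis genes were lower. Of the other replication genes 2 of 35 were lower, of the E2F and pocket protein genes 0 of 14, and of the G1 genes 4 of 14 with 1 higher. At day 8, where 8.62% of all genes were lower and 7.34% higher, the nucleotide genes had 3 lower and 4 higher, the other replication genes 2 lower, the E2F and pocket protein genes 3 lower, the G1 genes 3 lower and 2 higher and the mitosis genes 1 lower. In Colo-205 no gene of these lists passed over the mean of days. All 20 mitosis genes had an estimate below 0, where 47.2% of all genes did, with a median of -0.50. The part of cell division rate in the values of the replication genes was not tested.

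Several genes have more than 1 probe, and 13 of the 15 such genes had more than 1 tested in HT29. From day 1 to day 8, all probes fell in 5 of the 13 under PLX4720 and the probes differed in call in 6, and under DMSO these numbers were 10 and 3. For PLX4720 against DMSO, all probes were lower in 1 gene at day 1, 1 at day 3 and 0 at day 8, and the probes differed in call in 2, 3 and 1. The probes of ORC6 differed in call and in sign. Under DMSO its brighter probe did not pass (0.19 ± 0.13, limma adjusted p = 0.262 when each probe was tested on its own), while the second fell by 1.08 ± 0.21 (adjusted p = 0.00271). With PLX4720 they stood at 0.05 and -0.83. With its probes averaged ORC6 passed as lower under DMSO (-0.44, adjusted p = 0.0153). For MCM7 both probes fell under DMSO but by different amounts, with changes of -0.67 and -2.28, and for DUT 1 of 3 rose (0.53, adjusted p = 0.0393). Which transcripts each probe detects was not examined.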

How the data were processed

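Total RNA of 18 cultures was hybridised to Illumina BeadChips. The deposited non-normalized table gives, per the file headers, a linear intensity with a detection p-value per probe and array. The authors' second table holds processed intensity values and served as an alternative. The sources used here do not say how the detection p-values or the processed values were made. The intensity header of the first HT29 PLX4720 day 8 replicate carries the word mean, and it was used as 1 array.

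Intensities were corrected by normexp with background taken from the detection p-values (offset 16), quantile-normalized and taken to log2 with limma 3.58.1 in R 4.3.3. Missing values led to the removal of 4 probes. Genes had a probe detected (p-value under 0.01) on at least 2 arrays of the fit. HT29 was fitted with 6 group means, Colo-205 with day as a block, and the line difference as a treatment-by-line term over 18 arrays. Precision is set by how few arrays there were, with a median SE of 0.18 for 2 against 2. The fits were tested on simulated data. Replicate numbers were not used as pairs, as deviations of same-numbered arrays correlated at -0.02 to 0.13. These correlations do not show whether same-numbered cultures were handled together. The genes and lists were chosen with earlier results of these data known. The text names MCM2, MCM5, MCM6, CDC6, CDT1, E2F1, PCNA, RRM2, TYMS and TK1, the up to 5 called members with the largest change per comparison, other members by counts, ranges or short mentions, and up to 4 called genes of each other list. Symbols of the platform annotation were replaced by the RefSeq symbol of the same Entrez ID, which was found for 99.9% of named probes.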

Additional observations from a re-analysis of the deposited data

Results flagged for a closer look

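Listed here are 3 genes for which the PLX4720 effect in HT29 passed a test of difference between day 8 and day 1. In limma the effect of day 8 minus that of day 1 was 0.96 ± 0.27 for CDC6 (adjusted p = 0.0415), -0.61 ± 0.16 for RPA3 (adjusted p = 0.0312) and -0.76 ± 0.16 for TK1 (adjusted p = 0.0146). CDC6 read 4.72 and 4.61 with PLX4720 at day 8, where its probe was detected on neither array, against 4.98 and 4.87 with DMSO. The CDC6 value therefore takes a background reading as a level. By these readings CDC6 was 1.2-fold lower at day 8, which did not pass. Whether the day 8 effect differs from that of day 1 cannot be told. RPA3 read 12.31 and 12.43 against 11.69 and 11.83 at day 1, and TK1 read 10.91 and 11.01 against 10.86 and 10.73. None of the 3 kept its call in each refit without 1 array.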

How the results depend on the processing

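Counts of the 39 genes that passed are given here beside those of quantile normalization. Without background correction they were 17 at day 3 of PLX4720 against DMSO (10 as reported), 8 for PLX4720 day 3 minus day 1 (3) and 27 for PLX4720 day 8 minus day 3 (13), and the Colo-205 day 3 count past 1.5-fold was 11 (19). With 75th percentile scaling they were 14 at day 1 (9), 20 at day 3 and 26 over the mean of days (15). Without between-array normalization they were 4 at day 3, 3 at day 8 (5) and 5 for PLX4720 day 8 minus day 3. With the authors' processed values they were 17 at day 3, 23 over the mean of days, 5 for the effect of day 8 minus day 1 (3), 8 for PLX4720 day 3 minus day 1 and 27 for PLX4720 day 8 minus day 3, and 11 for Colo-205 day 3. Without the filter on dim probes they were 3 at day 8 and 7 for PLX4720 day 8 minus day 3. The cause was not tested.

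Leaving out 1 array gave 5 to 8 genes at day 1, 1 to 3 at day 3, 0 to 4 at day 8, 11 to 16 over the mean of days and 0 to 4 for the effect of day 8 minus day 1. For DMSO it gave 0 for day 3 minus day 1, 28 to 31 for day 8 minus day 3 and 31 to 32 for day 8 minus day 1. For PLX4720 it gave 0, 0 to 3 and 14 to 25 for the same steps. Leaving out 1 HT29 array gave 0 for the line difference, where no Colo-205 array was left out. For Colo-205 both arrays of a day were left out together, which gave 0. With the replicate number as a block the counts were 11, 13 and 5 at days 1, 3 and 8, and 31 and 33 for day 8 minus day 3 of DMSO and day 8 minus day 1 of PLX4720, and the block moved no count by over 1.5 times.

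TK1 at day 1 turned to -0.036 with 75th percentile scaling. ORC6 turned to -0.11 under DMSO and -0.10 under PLX4720 with that scaling, to -0.44 (limma adjusted p = 0.0153, a fall that passed) under DMSO and -0.39 (adjusted p = 0.0563) under PLX4720 with its probes averaged, and to -0.028 under PLX4720 without the second day 1 array, the other refits without 1 array reaching 0.12. Of 2274 refits of 153 called gene results, 1975 kept the call, 299 lost it and 0 reversed. The number of arrays, 2 or 1 in a group, limits all of these.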
